A study of Homo sapiens with 12 samples.

Results

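The comparison set the 4 arrays with biological replicate number 2 against the 8 arrays with numbers 1 and 3, out of 12 arrays in all. Each number occurs once under each of 4 treatments, so that every treatment had 1 array of replicate 2 and 2 others. The cells were U87, an established human glioblastoma line, which received vehicle (V, 0.1% DMSO), allopregnanolone (3α-THP, 10 nM), progesterone (P4, 10 nM) or finasteride (F, 100 nM) for 72 h. One label field gives the vehicle as 10% DMSO. Before treatment all cultures had spent 24 h in phenol red-free medium with charcoal-stripped serum. Total RNA was hybridised to whole-transcript Affymetrix Human Gene 1.0 ST arrays.

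Replicate number 2 was selected on the log2 values of these same arrays, on which it was already seen to stand apart from the others. The differences between replicate 2 and the others are therefore given as a description without a test, whereas replicates 1 and 3 were compared with a test, as was the dependence of the replicate 2 difference on the treatment. The labels call the numbers biological replicates, and the series describes independent experiments. They do not say whether equal numbers share a culture day, a passage or a processing run, and these cannot be told apart here. The standard errors, and the p-values between replicates 1 and 3, count every array as an independent sample of its number. If the arrays of a number came from a single experiment, these values would measure the spread between arrays and not between experiments. The number of independent experiments behind each replicate number would then be smaller than the number of arrays.

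A proliferating cell culture holds cells at every stage of the division cycle, and many transcripts are made only at one stage. Genes for DNA replication and for histones are transcribed as cells enter S phase, those for replication largely through E2F factors. Genes for the mitotic spindle follow in G2 and M phase, largely through a short promoter element known as the CHR and through CCAAT boxes. A bulk measurement of such a transcript rises and drops with the share of cells at that stage as well as with the amount of RNA per cell, and the arrays could not separate these. Glioblastoma cells in culture also make much extracellular matrix, and U87 is known for its mesenchymal character.

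All values are log2 values per transcript cluster, the array's unit for a gene, and 21214 clusters with a gene symbol were used. The level of a cluster was compared only with itself on other arrays. The difference of replicate 2 is the mean over the 4 treatments of its array minus the mean of replicates 1 and 3. A cluster was called higher or lower in replicate 2 if this difference exceeded 1.5-fold (0.585 on the log2 scale) and the replicate 2 array lay beyond both others under every treatment.

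Array medians ran from 6.35 to 6.40, and the spread of each array around the cluster medians (interquartile range) was 0.166 to 0.216 for replicate 2 and 0.132 to 0.171 for the others. The first principal component held 37% of the variance, with scores of 9.2 to 30.1 for the replicate 2 arrays and -15.4 to -1.2 for the other 8. Of the total sum of squares, 33.1% lay between replicate 2 and the others, 22.8% between treatments and 10.3% between replicates 1 and 3, and 33.8% was left over. For the median cluster the order differed, with 13.4% for replicate 2 and 20.7% for treatment. Of the markers of mesenchymal glioma, VIM (vimentin) read 12.41 to 12.62 and CD44 11.71 to 11.98 over the 12 arrays. The astrocyte marker GFAP read 5.99 to 6.39, OLIG2 5.37 to 5.79, SOX2 3.88 to 4.26 and S100B 3.57 to 3.98. The table holds no detection calls, so whether these glial genes were expressed was not decided.

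In replicate 2, 306 clusters were higher (1.44% of those measured) and 59 were lower (0.278%). They stand for 280 and 51 single genes. Genes in lists of the cell cycle, histones, DNA repair or chromosome cohesion were the largest described group on the higher side, with 108 of the 280. Of 18417 measured genes, these lists held 52 (G2 and M phase), 55 (S phase), 57 (histones), 32 (repair) and 21 (condensin and cohesin). In all, 136 of the 280 were members of a list. Extracellular matrix genes and 5 microRNA loci stood out on the lower side. At the threshold, ZNF35 and ABHD3 lay just inside at 0.585 and PSMD14 and USP13 just outside at 0.584. On the lower side THBS2 lay just inside at -0.587 and NID2 just outside at -0.583. The order rule alone, at any size, held for 2254 clusters above and 1894 below. Leaving out single arrays gave 235 to 381 higher clusters and 37 to 87 lower ones. The count of 37 came from leaving out 3α-THP replicate 2.

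The sequences shown first belong to both ends of this difference. For the mitotic genes they are the 120 bases before the transcription start of HMMR (chr5:163460512-163460631, plus strand), CEP55 (chr10:93496492-93496611, plus strand) and DLGAP5 (chr14:55191586-55191705, minus strand). These had the largest replicate 2 differences among called G2 and M phase genes with both a CHR and a CCAAT box in that stretch, and both motifs are in capitals.
HMMR: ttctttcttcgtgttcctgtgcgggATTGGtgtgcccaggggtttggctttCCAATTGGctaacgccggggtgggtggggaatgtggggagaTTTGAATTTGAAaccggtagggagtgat
CEP55: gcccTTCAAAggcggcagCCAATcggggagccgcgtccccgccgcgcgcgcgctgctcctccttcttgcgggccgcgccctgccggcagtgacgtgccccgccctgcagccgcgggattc
DLGAP5: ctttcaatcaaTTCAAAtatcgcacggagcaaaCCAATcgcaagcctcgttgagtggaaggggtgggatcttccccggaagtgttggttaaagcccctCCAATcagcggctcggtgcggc
For DNA replication the same stretch is shown for TYMS (chr18:657533-657652, plus strand), MCM6 (chr2:135876444-135876563, minus strand) and MCM7 (chr7:100101398-100101517, minus strand), with E2F motifs in capitals.
TYMS: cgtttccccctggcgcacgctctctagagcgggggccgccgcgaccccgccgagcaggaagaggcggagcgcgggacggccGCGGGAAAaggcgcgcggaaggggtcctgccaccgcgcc
MCM6: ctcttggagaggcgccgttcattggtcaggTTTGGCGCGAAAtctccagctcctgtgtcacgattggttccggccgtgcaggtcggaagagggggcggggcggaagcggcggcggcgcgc
MCM7: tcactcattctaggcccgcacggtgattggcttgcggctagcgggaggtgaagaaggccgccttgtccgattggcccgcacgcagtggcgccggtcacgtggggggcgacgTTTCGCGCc
All promoter sequences are from RefSeq on GRCh38.p14, written 5′ to 3′ on the strand of the gene. The motifs were TTTGAA for the CHR, CCAAT for the CCAAT box, and TTTGGCGC, TTTCGCGC, TTTCCCGC or TTTGCCGC for E2F, each searched on both strands and allowed to overlap, over 250 bases before to 50 after the start.

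These letters were unevenly spread over the gene groups. Among 44 G2 and M phase genes with a promoter in the table, 30 (68.2%) held the CHR and 35 (79.5%) a CCAAT box, and 26 (59.1%) held both. Over all 27305 promoters the shares were 15.4%, 35.7% and 6.08%, and over the 14239 promoters of measured genes 11.9%, 36.3% and 4.86%. The E2F letters were found in 2 of the 44 (4.55%), against 3.33% of all promoters and 4.52% of those of measured genes. In 46 S phase genes the E2F letters were in 22 (47.8%), the CHR in 2 (4.35%) and a CCAAT box in 25 (54.3%). Of 52 histone genes, 17 (32.7%) held the CHR, 44 (84.6%) a CCAAT box and 15 (28.8%) the E2F letters. Of 243 genes higher in replicate 2, 73 (30%) held the CHR, 142 (58.4%) a CCAAT box and 40 (16.5%) the E2F letters. These 243 include called members of the lists above. Of 36 lower genes, 7 (19.4%) held the CHR, 7 (19.4%) a CCAAT box and none the E2F letters. The motifs were searched for after the leading gene groups were known, and a match of letters does not show that a factor binds.

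For the lower side 1 mature microRNA of each called locus is shown, since the seed (bases 2 to 8, in capitals) sets which messages a microRNA pairs with. The other arms of the MIR100, MIR222, MIR181B1 and MIRLET7A2 hairpins have other seeds and are not shown.
hsa-miR-21-5p: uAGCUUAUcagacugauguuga
hsa-miR-100-5p: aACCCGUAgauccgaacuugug
hsa-miR-222-3p: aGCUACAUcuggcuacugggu
hsa-miR-221-3p: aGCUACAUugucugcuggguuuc
hsa-miR-181b-5p: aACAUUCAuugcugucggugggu
hsa-let-7a-5p: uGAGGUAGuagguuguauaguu
The loci, from RefSeq on GRCh38.p14, are at chr17:59841273-59841294 (plus strand) for hsa-miR-21-5p, and on the minus strand at chr11:122152275-122152296 for hsa-miR-100-5p, chr11:122146568-122146589 for hsa-let-7a-5p, chrX:45747036-45747056 for hsa-miR-222-3p, chrX:45746180-45746202 for hsa-miR-221-3p and chr1:198858925-198858947 for hsa-miR-181b-5p. The MIR100 and MIRLET7A2 hairpins are neighbours on chromosome 11, and MIR222 and MIR221 are neighbours on the X chromosome and share their seed. MIR221 was not called and is shown for that reason. Of the 173 measured microRNA genes, 164 had an entry in the RefSeq table.

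The 52 measured genes of G2 and M phase were the group that differed most among the 59 lists. All 52 had a positive difference, 44 were called higher and none lower, and their median difference was 1.02 against -0.02 for all genes. A positive difference was found for 8149 of all 18417 genes. In 38 of the 52 the lowest replicate 2 array lay above the highest of the other 8, which held for 6.2% of all clusters. By treatment, the list median was 1.17 under V, 1.37 under 3α-THP, 0.72 under P4 and 0.84 under F. The difference was largest under 3α-THP for 39 of the 52 genes and smallest under P4 for 30.

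**Figure D1:**
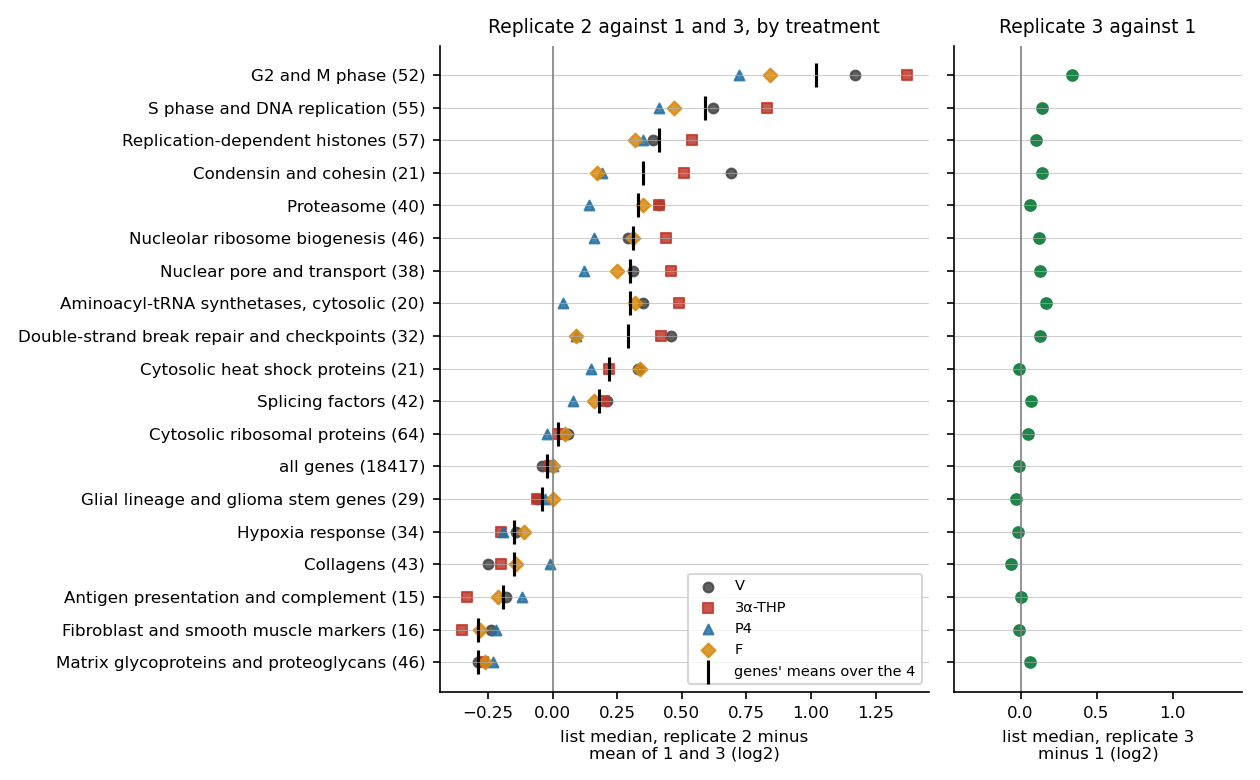
Median log2 difference of gene lists (number of genes measured in brackets), with replicate 2 minus the mean of replicates 1 and 3 on the left, for each treatment (symbols) and for the genes' means over the 4 treatments (bars), and replicate 3 minus 1 on the right. The G2 and M phase list is farthest to the right in both panels, at 1.02 and 0.34, and the matrix glycoproteins lie lowest on the left at -0.29, with the fibroblast and smooth muscle markers.

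HMMR, a spindle protein first described as a hyaluronan receptor, led the list. It read 6.59 (V), 7.26 (3α-THP), 6.08 (P4) and 6.20 (F) on the replicate 2 arrays, and 4.74 to 6.01 (median 5.08) on the other 8. The groups did not overlap, and the difference was 1.39 ± 0.165 (limma SE, n = 4 and 8 arrays counted as independent), or 2.61-fold. CEP55, which acts in the final cut between daughter cells, read 7.82, 8.50, 7.55 and 7.88 in the same order of treatments against 6.24 to 7.12 (median 6.47), a difference of 1.37 ± 0.147. SGO1, which protects cohesion at the centromere, differed by 1.36 ± 0.126. The kinetochore component NUF2 differed by 1.29 ± 0.143 and the spindle checkpoint kinase TTK by 1.28 ± 0.185. For these 3 genes, too, all replicate 2 arrays were above all others.

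Several regulators of mitotic entry and exit were called as well. PLK1, a kinase that drives cells into and through mitosis, read 9.15 (V), 9.64 (3α-THP), 8.90 (P4) and 8.89 (F) in replicate 2 and 7.50 to 8.63 (median 7.94) elsewhere. Every treatment was thus higher in replicate 2, by 1.21 ± 0.167 on average. CDC20, the activator of the anaphase-promoting complex, read 8.51, 8.90, 8.06 and 8.27 against 6.91 to 7.60 (median 7.27), and differed by 1.19 ± 0.140. CCNB1, the mitotic cyclin B1, differed by 1.13 ± 0.114, and CDK1, its kinase, by 1.10. For PTTG1 (securin, an inhibitor of anaphase), called at 0.64, the groups overlapped, with 6.71 as the lowest replicate 2 array and 6.76 as the highest of the others. FOXM1, a transcription factor of G2 and M phase genes, differed by 1.12 ± 0.125, and MKI67, the proliferation antigen Ki-67, by 1.14 ± 0.115. Among motor proteins, KIF23 differed by 1.23, KIF20A by 1.08, KIF11 by 1.03 and KIF4A by 1.02. ANLN, a scaffold of the contractile ring, differed by 1.27 ± 0.137.

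The 8 members that were not called were CDC25B, CENPE, CENPF, KIF20B, KIF18A, ASPM, SGO2 and GTSE1. CDC25B (0.27) and GTSE1 (0.56) kept the order under every treatment but missed the size. CENPF, a kinetochore protein, read 8.04 (V), 9.42 (3α-THP), 7.36 (P4) and 7.61 (F) in replicate 2 and 6.05 to 8.35 (median 7.12) elsewhere, so that the groups overlapped. Its difference was 1.83 under V and 1.73 under 3α-THP, but 0.64 under P4 and -0.07 under F. ASPM, a protein of the spindle poles, went from 1.67 under V to -0.21 under F. CENPE, KIF20B and KIF18A were below 0 under F as well, at -0.52, -0.53 and -0.17. These 5 genes were the members with a negative difference under any treatment, in each case under F.

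**Figure D2:**
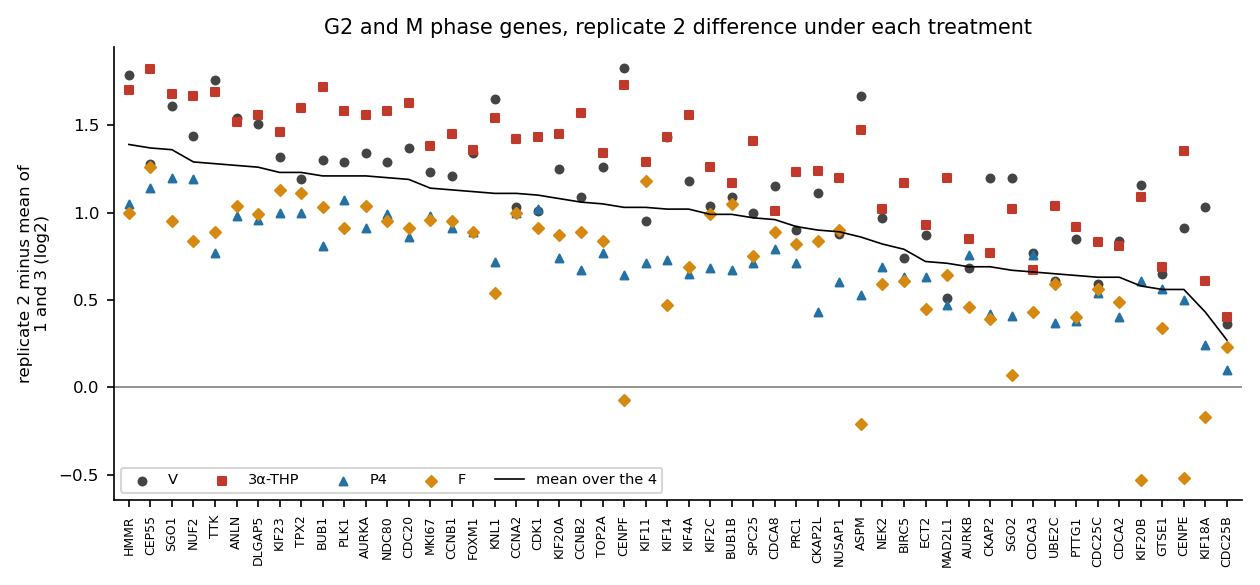
Replicate 2 minus the mean of replicates 1 and 3 (log2, vertical axis) for the 52 G2 and M phase genes (horizontal axis, sorted by their mean), with 1 symbol per treatment and the mean as a line. Nearly all symbols lie above 0, those of 3α-THP mostly highest, and CENPF, ASPM, KIF20B, CENPE and KIF18A fall below 0 under F.

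Of 55 measured genes of S phase and DNA replication, 28 were higher and none lower, with a median difference of 0.59. Over all 18417 genes, 1.51% were higher and 8149 had a positive difference. For 54 of the 55 the difference was positive, the exception being the clamp loader subunit RFC1 at -0.08. In 43 the replicate 2 arrays lay above all others, which held for 6.2% of all clusters. CDC6, which loads the replicative helicase onto origins, read 7.82 (V), 8.28 (3α-THP), 7.74 (P4) and 7.84 (F) in replicate 2 and 6.12 to 6.69 (median 6.65) elsewhere. There was no overlap, and the difference was 1.39 ± 0.130. CLSPN (claspin, an adaptor of the replication checkpoint) has 2 clusters. One read 6.92, 7.27, 6.49 and 6.95 against 5.00 to 5.80 (median 5.33), a difference of 1.54 ± 0.144, and the brighter one differed by 1.12 ± 0.109. CCNE2 (cyclin E2) differed by 1.11 ± 0.117 and ORC6, a subunit of the origin recognition complex, by 1.09 ± 0.124.

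Most helicase subunits of the MCM family were called. MCM6 differed by 0.87, MCM7 and MCM3 by 0.86, MCM4 by 0.89 and MCM5 by 0.77, while MCM2 at 0.46 kept the order but missed the size. PCNA, the sliding clamp of the polymerases, differed by 0.74 and TYMS, which makes thymidylate, by 0.93. The general single-strand binding subunit RPA1 (0.09), the ligase LIG1 (0.12), the polymerase subunit POLD2 (0.06) and the factors E2F1 (0.21) and E2F2 (0.20) were among the 27 that were not called. E2F8, by contrast, differed by 0.93.

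Histone genes that are expressed with DNA replication were the third group. Of 57 measured, 21 were higher (36.8%, against 1.51% of all genes) and none lower. The median was 0.41, and 0.68 over the 31 with a mean log2 of at least 6. H3C2 (histone H3) read 8.56 (V), 8.76 (3α-THP), 8.21 (P4) and 8.13 (F) in replicate 2 and 6.67 to 7.30 (median 7.05) elsewhere, a difference of 1.39 ± 0.134 without overlap. H2BC14 differed by 1.38 ± 0.129, H2BC7 by 1.18 ± 0.135 and the linker histone H1-5 by 1.10 ± 0.117. Histone genes of one class are near-identical in sequence, so their probes may read more than one gene and single members are uncertain.

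Chromosome structure and repair followed. Of 21 condensin and cohesin genes 8 were higher (38.1%, against 1.51% of all genes), with a median of 0.35. ESCO2, which acetylates cohesin during S phase, read 8.47, 8.73, 8.20 and 8.31 under V, 3α-THP, P4 and F in replicate 2, against 6.67 to 7.45 (median 7.01). Its difference of 1.43 ± 0.105 was the largest of these lists. The condensin subunits NCAPG (1.14), NCAPH (0.94) and NCAPG2 (0.76) were higher as well. Of 32 genes of double-strand break repair and checkpoints, 7 were higher (21.9%, against the same 1.51%), with a median of 0.29. FANCI differed by 1.06, BRCA1 by 1.05 and the helicase BLM by 1.02.

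Several sets outside the cycle had smaller differences in the same direction. Of all 18417 genes, 8149 were positive and 279 were called higher. All 46 nucleolar genes of ribosome biogenesis had a positive difference (median 0.31), and 5 were called, among them DDX21 (0.85) and NOP2 (0.66). Of 38 nuclear pore and transport genes, 36 were positive (median 0.30) and 3 were called, led by the importin KPNA2 at 1.20. None of 40 proteasome genes was called, although 34 were positive and the median was 0.33. The 64 cytosolic ribosomal proteins stayed at a median of 0.02 with none called. Of 32 actin cytoskeleton genes 2 were called, ANLN and DIAPH3 (1.21), both of which also act in cytokinesis.

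Single called genes belonged to stress and metal lists. MT1X, a metallothionein that binds zinc and copper, read 12.11 (V), 11.91 (3α-THP), 12.03 (P4) and 11.72 (F) in replicate 2 and 10.99 to 11.43 (median 11.20) elsewhere. MT1M (0.78) and the zinc exporter SLC30A1 (0.59) were higher too, and the zinc importer SLC39A10 was lower (-0.66). Metallothionein genes are close paralogues, and their probes may share signal. HMOX1, the haem-degrading oxygenase, differed by 0.93 ± 0.116 and the chaperone HSPH1 by 0.86 ± 0.080. IL6 was the one member of the cytokine and NF-kB list called higher, at 0.74 ± 0.131, with 7.90 under 3α-THP and 7.05 to 7.16 under the other treatments. PAX8-AS1, a long noncoding RNA gene, had the largest difference of all single-gene clusters at 1.57 ± 0.232, with 7.0 to 8.55 in replicate 2 and 5.60 to 6.82 (median 6.22) elsewhere. Other leading genes were PBK (1.33), a mitotic kinase, DEPDC1 (1.30) and FAM111B (1.29).

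**Figure D3:**
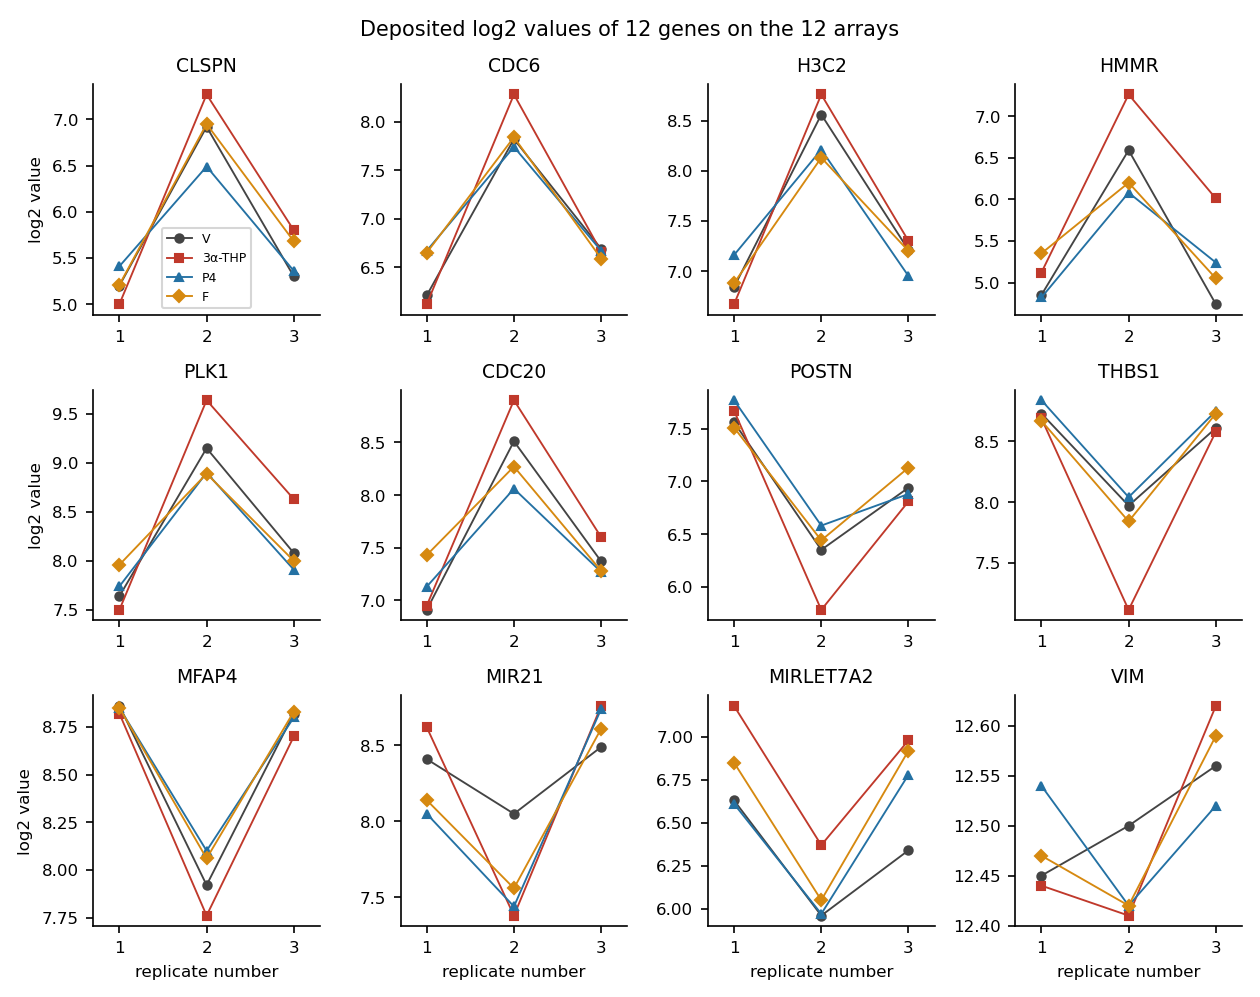
Deposited log2 value (vertical axis, a scale of its own for each gene) of 12 genes by replicate number (horizontal axis, without order), with arrays of 1 treatment joined. CLSPN, CDC6, H3C2, HMMR, PLK1 and CDC20 are highest in replicate 2 under every treatment, POSTN, THBS1, MFAP4, MIR21 and MIRLET7A2 are lowest there, and VIM spans only 12.41 to 12.62.

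Matrix genes led the lower side. Of 46 measured matrix glycoproteins and proteoglycans, 7 were lower and 1, SPP1 (osteopontin, 0.71), was higher, and 42 had a negative difference, with a median of -0.29. Of all 18417 genes, 50 were lower and 8149 had a positive difference. In 27 of the 46 all replicate 2 arrays lay below all others, which held for 4.2% of all clusters. POSTN (periostin) read 6.35 (V), 5.78 (3α-THP), 6.58 (P4) and 6.44 (F) in replicate 2 and 6.81 to 7.77 (median 7.32) elsewhere, a difference of -1.0 ± 0.192. THBS1 (thrombospondin 1) read 7.97, 7.11, 8.04 and 7.84 in that order against a narrow 8.58 to 8.84 (median 8.71), and differed by -0.96 ± 0.106. The drop was deepest under 3α-THP for both. MFAP2, a microfibril component, differed by -0.74 ± 0.090.

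Other lower genes with a matrix role lay outside that list. MFAP4, a second microfibril protein, read 7.92, 7.76, 8.10 and 8.06 against 8.70 to 8.86 (median 8.83), and its difference of -0.86 ± 0.060 held 95.7% of its sum of squares. HMCN1 (hemicentin 1) differed by -0.90 ± 0.169, ITGA11, a subunit of a collagen-binding integrin, by -0.77 ± 0.099, and EPYC, a small proteoglycan, by -1.05 ± 0.203. For EPYC the groups overlapped over the 12 arrays, since the other 8 went down to 7.47 and the P4 array of replicate 2 read 7.78. None of 43 collagens was called. The mean difference was negative for 42, with a median of -0.15 that became -0.09 without V replicate 2. By treatment the median was -0.25 under V, -0.20 under 3α-THP, -0.01 under P4 and -0.14 under F. COL1A2 read 12.22 to 12.64 in replicate 2 and at least 12.84 elsewhere, a difference of -0.41, and COL5A2 differed by -0.46. FN1 (fibronectin) differed by -0.16 and SPARC, a collagen-binding glycoprotein, by -0.26, and in both all replicate 2 arrays lay below all others.

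Markers of other cell types were measured beside this group. Of 16 fibroblast and smooth muscle markers, 15 were negative and 2 lower, DCN (decorin, -0.66) and PDGFRB (a receptor of platelet-derived growth factor, -0.73). Their median log2 level was 7.45 to 7.53 on the replicate 2 arrays and 7.57 to 7.70 on the others, and the part of these markers in the matrix result was not tested. The 19 immune markers had a median level of 5.02 to 5.15 in replicate 2 and 4.90 to 5.2 elsewhere, with PTPRC (CD45) at 2.84 to 3.10 on all arrays. Endothelial (4.70 to 4.96 against 4.73 to 5.06) and neuronal markers (5.10 to 5.41 against 5.13 to 5.33) overlapped. Epithelial markers overlapped too (5.22 to 5.30 against 5.21 to 5.38), and of the 16 only KRT8, a keratin, was called, at -0.60. The 29 glial and glioma stem genes had a median difference of -0.04 and none was called.

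The 5 lower microRNA loci were MIR21, MIR100, MIR222, MIR181B1 and MIRLET7A2, which is 2.89% of the 173 measured microRNA genes against 0.278% of all clusters. The whole-transcript probes do not tell a mature microRNA from its precursors. MIR21 read 8.05 (V), 7.38 (3α-THP), 7.44 (P4) and 7.56 (F) in replicate 2 and 8.05 to 8.76 (median 8.55) elsewhere, a difference of -0.87 ± 0.143 with groups that touched at 8.05. MIRLET7A2 read 5.96, 6.37, 5.97 and 6.05 against 6.34 to 7.18 (median 6.82), and differed by -0.70 ± 0.075, with an overlap by its 3α-THP array. MIR100 read 3.51 to 4.95 over the 12 arrays, and without detection calls it is not known to lie above background. MIR100 (-0.78 ± 0.117), MIR222 (-0.76 ± 0.142) and MIR181B1 (-0.72 ± 0.106) overlapped over the 12 arrays too, and were called because each treatment kept its order. MIR221, with the seed of MIR222, differed by -0.45 ± 0.121. The median of all 189 measured microRNA loci and host genes was -0.07.

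Further lower genes fell into no large group. CDK18, a cyclin-dependent kinase outside the division cycle, differed by -0.75 ± 0.088, and ADHFE1, a mitochondrial oxidoreductase, by -0.75 ± 0.073, with 5.61 to 5.98 in replicate 2 and 6.54 to 6.72 (median 6.63) elsewhere. EGR1, an immediate early transcription factor, differed by -0.61, the lipid droplet protein HILPDA by -0.66, the chemokine CCL5 by -0.63 and TSC22D3 (GILZ, a glucocorticoid target) by -0.59. MAMDC2 (-0.94), NAALADL2 (-0.82) and the pseudogenes ADAM20P1 (-0.84) and FER1L4 (-0.78) completed the 15 lowest.

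**Figure D4:**
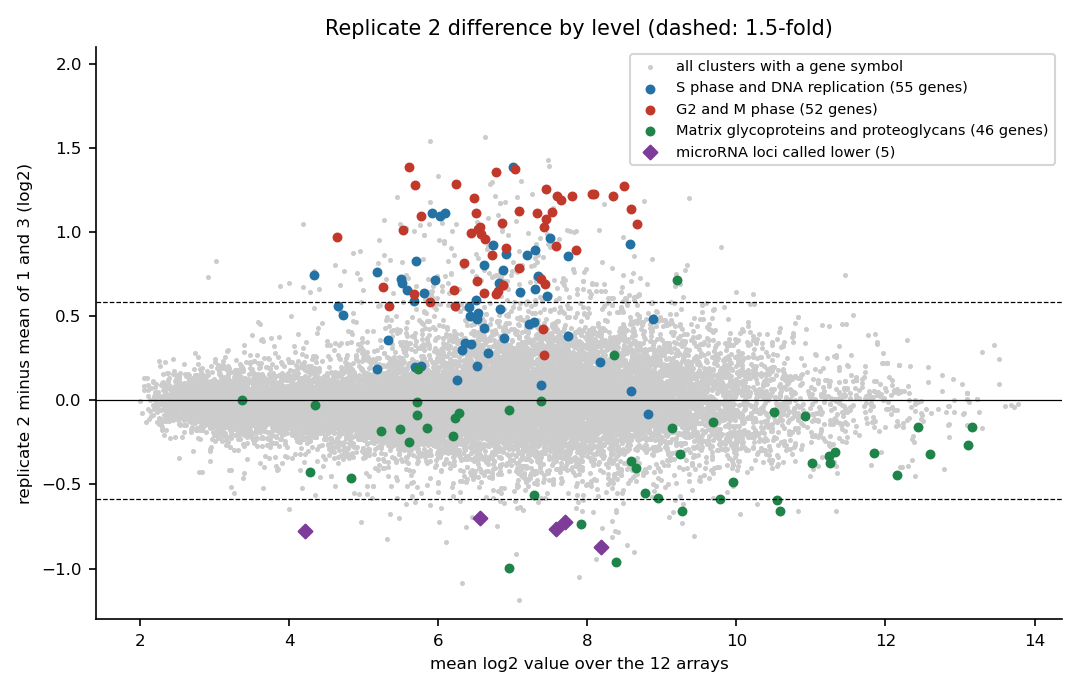
Replicate 2 minus the mean of replicates 1 and 3 (log2, vertical axis) against the mean log2 value over 12 arrays (horizontal axis) for all 21214 clusters (grey), with 3 gene lists and the 5 lower microRNA loci coloured and 1.5-fold marked by dashed lines. Genes of G2 and M phase and of S phase sit above 0 at middle levels, and matrix genes mostly below 0 from middle to high levels.

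Whether the replicate 2 difference depended on the treatment was tested by the interaction in limma. No cluster passed an adjusted p of 0.05 (smallest 0.298), and 1440 (6.79%) had an unadjusted p under 0.05, with 3 residual degrees of freedom behind each estimate of the spread. Among these were 77 of the 306 higher and 26 of the 59 lower clusters, which had been chosen on the same arrays. The missing calls do not show that the difference was alike under the 4 treatments. The 306 higher clusters had median differences of 0.88 under V, 1.08 under 3α-THP, 0.60 under P4 and 0.71 under F, and 126 exceeded 1.5-fold under all 4. For the 59 lower clusters the medians were -0.60, -0.97, -0.57 and -0.64, and 9 exceeded it under all 4. The smallest interaction p-values belonged to KLRC3, ZNF678, H2AC14, TRIP11, SLC2A2, TAS2R31, PCDHA1 and IL1A. TRIP11, a protein of the Golgi, differed by 0.52 under V, -0.04 under 3α-THP, -0.33 under P4 and -1.26 under F (adjusted p = 0.448). With the dimmer clusters left out, 6 passed the adjusted p, TRIP11, ASPM, MAP9, H4C3, AKAP9 and ATRX. With a variance prior that follows the level, 3 did, TRIP11, KLRC3 and OLFML3.

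Replicates 1 and 3 were then compared with each other, a contrast that the choice of replicate 2 did not use. In limma, 63 clusters were higher in replicate 3 (0.297%) and 19 lower (0.0896%) at an adjusted p under 0.05. Past a fold of 1.5 with an unadjusted p under 0.05, the combination that the study itself applied, 27 were higher (0.127%) and 6 lower (0.0283%). An unadjusted p under 0.05 alone was found for 1461 higher (6.89%) and 1299 lower clusters (6.12%). The count of 82 at the adjusted p depended on single arrays. Leaving out an array of V gave 36 (replicate 1) or 48 (replicate 3). For 3α-THP the counts were 6 (replicate 1) and 11 (replicate 3), for F 17 (replicate 1) and 15 (replicate 3), and leaving out P4 replicate 3 gave 4. The 33 past fold and p became 54 if V replicate 3 was left out and 52 if F replicate 1 was.

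For genes of G2 and M phase, replicate 3 lay above replicate 1. Over all genes, 8334 of 18417 had a higher mean in replicate 3 than in 1. All 52 of this list did, with a median of 0.34. At an unadjusted p under 0.05, 39 were higher and none lower, whereas none passed the adjusted p. Over all genes, 1306 were higher and 1118 lower at that unadjusted p. The replicate means of all 52 stood in the order 1, 3, 2. Of the S phase genes, 47 of 55 were higher in replicate 3 (median 0.14), 16 at the unadjusted p, and RFC3 alone passed the adjustment. RFC3, a clamp loader subunit, read 5.98 (V), 6.05 (3α-THP), 6.11 (P4) and 6.25 (F) in replicate 1 and 6.57, 6.63, 6.57 and 6.60 in replicate 3, a difference of 0.50 (adjusted p = 0.017). Replicate 2 was higher than either, at 6.95 to 7.30.

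Of the 306 clusters higher in replicate 2, 286 had a higher mean in replicate 3 than in 1, 131 at the unadjusted p and 3 at the adjusted p. Over all 21214 clusters, 9587 had a higher mean in replicate 3. On the lower side, 32 of the 59 had a higher mean in replicate 3, with 12 higher and 9 lower at the unadjusted p. Matrix glycoproteins were higher in replicate 3 for 31 of 46 genes (median 0.06). At the unadjusted p 12 were higher and 5 lower, and at the adjusted p 1 was higher (THBS2) and 1 lower (POSTN). Over all 18417 genes, 1306 were higher and 1118 lower at the unadjusted p, and 59 and 19 at the adjusted p.

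SLC6A15, a neutral amino acid transporter, read 5.47 (V), 5.49 (3α-THP), 5.52 (P4) and 5.75 (F) in replicate 1 and 6.35, 6.75, 6.50 and 6.58 in replicate 3, a difference of 0.99 (adjusted p = 0.00507), the largest at the adjusted p. The arrays of the 2 numbers did not overlap, and the replicate 2 arrays lay between them at 5.80 to 6.45. IL1B, the inflammatory cytokine interleukin 1 beta, read 6.91, 6.56, 6.92 and 6.58 in replicate 1 and 7.64, 7.59, 7.55 and 7.57 in replicate 3, a difference of 0.84 (adjusted p = 0.0206). IL36B, of the same cytokine family, differed by 0.80 (adjusted p = 0.015), and EREG, a ligand of the epidermal growth factor receptor, by 0.76 (adjusted p = 0.0301). IL36B was also higher in replicate 2 than in the others, by 1.17 ± 0.213.

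NR1D1 (REV-ERB alpha, a repressor of the circadian clock) had the smallest adjusted p of the comparison, 0.00404. It read 8.22, 8.23, 8.27 and 8.19 in replicate 1 and 8.94, 9.02, 8.79 and 8.96 in replicate 3, a difference of 0.70, with replicate 2 lowest at 7.99 to 8.09. The pseudogene RPSAP52 (0.95), CPM (carboxypeptidase M, 0.73) and ACSM3 (0.67) completed the 8 largest. On the other side ATP13A2, a lysosomal transport ATPase, read 8.32, 8.12, 8.46 and 8.14 in replicate 1 and 7.72, 7.15, 7.52 and 7.51 in replicate 3, a difference of -0.78 (adjusted p = 0.00773). POSTN was lower by -0.69 (adjusted p = 0.0329), ADCY3, an adenylate cyclase, by -0.59 (adjusted p = 0.00773) and PLAC8 by -0.57 (adjusted p = 0.03). BBOX1, LINC01940, KCNE4 and UQCC5 made up the rest of the 8 largest falls from replicate 1 to 3, at -0.57 to -0.55. In all, 3 clusters higher and 5 lower in replicate 2 passed the adjusted p between replicates 1 and 3, with POSTN and IL36B among them.

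**Figure D5:**
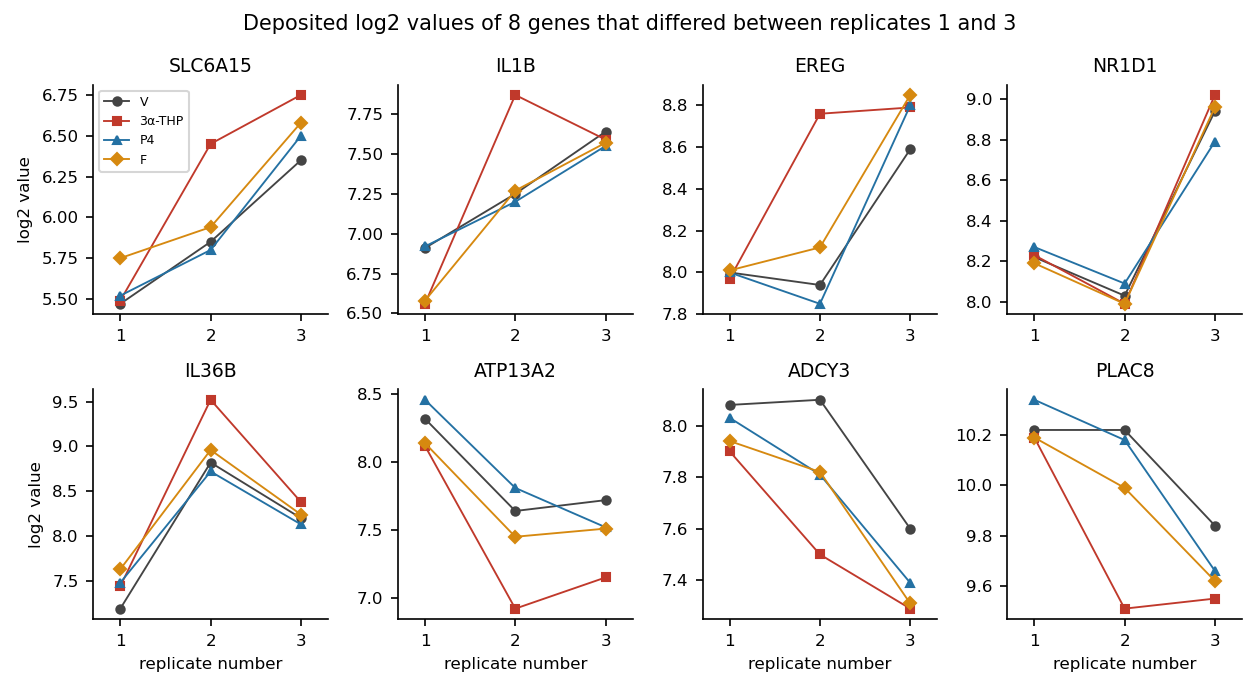
Deposited log2 value (vertical axis, a scale of its own for each gene) by replicate number (horizontal axis, without order) of 8 genes that passed the adjusted p between replicates 1 and 3, with arrays of 1 treatment joined. SLC6A15, IL1B, EREG, NR1D1 and IL36B are higher in replicate 3 than in 1 under every treatment, ATP13A2, ADCY3 and PLAC8 are lower, and NR1D1 is lowest in replicate 2.

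By chromosome the median difference of replicate 2 ran from -0.044 (chromosome 21) to -0.004 (chromosome 18), and the share of higher genes was largest on chromosome 6 at 2.97%, which carries most replication-dependent histone genes. Over 4 equal classes of genomic length, the medians of protein-coding genes ran from -0.026 to 0.000 and the share of higher genes from 1.14% to 2.34%. Over 4 classes of mean level, 17 of the 4605 dimmest genes were higher (0.369%) and 127 of 4604 in the class below the brightest (2.76%), while lower genes were most frequent among the brightest, with 30 of 4604 (0.652%). Of 632 long noncoding RNA genes 1 was higher, and of 175 small nucleolar RNA genes none was called.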

How the data were processed

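RNA from U87 cultures was hybridised to 12 arrays, and the deposited table holds log2 values per transcript cluster that the authors made and normalized. The submitters' processing notes name Affymetrix Expression Console 1.4, and the paper names quantile normalization in other software for its own analysis. The genome build is not given in the sources used here. Values ran from 1.25 to 14.1 with none missing. Of 33297 clusters, 12083 without a gene symbol were left out, 19460 had 1 gene and 1754 several, and 703 of those used shared all values with another cluster.

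Groups and replicate numbers came from the sample titles. For the replicate 2 difference, treatment was a covariate in a linear model (limma 3.58.1, R 4.3.3). Replicates 1 and 3 were compared, and the interaction was tested, with moderated variances (prior degrees of freedom 6.4 and 7.23) and Benjamini-Hochberg adjustment over 21214 clusters. A fold threshold of 1.5 came from the methods. The number of arrays limits the precision, and p-values measure only the spread between these samples, which the labels do not fully describe. Scripts were tested on simulated data.

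Gene lists took the brightest single-gene cluster of each gene. The comparison, the 59 lists and 2 more (circadian clock genes, nucleotide synthesis) were chosen with earlier results of these arrays known. Named genes are the 15 highest and 15 lowest called, the 4 largest called of each list, the 8 largest of each direction between replicates 1 and 3, the 8 smallest interaction p-values and cell type markers. All others were chosen after their values were seen. Protein length was not used here, and genomic length stands in its place. Alternatives were other normalizations, level and cluster filters, other variance priors, array weights and leaving out arrays.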

Additional observations from a re-analysis of the deposited data

Results flagged for a closer look

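Of 92 quantities (gene list medians and the 30 leading genes), 4 had 1 treatment whose replicate 2 difference stood apart from the other 3, and chance gives about 1 in 20. The collagen-binding integrin subunit ITGA11 differed by -1.25 under 3α-THP and by -0.65 to -0.58 under the other treatments. The golgins and membrane tethers had a median of 0.16 under V and of -0.13 to -0.08 elsewhere. The genes of the unfolded protein response had a median of -0.12 under 3α-THP against -0.05 to -0.03, and glycolysis one of 0.04 under P4 against 0.07 under each other treatment.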

How the results depend on the processing

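The arrays limit all results to 1 sample per treatment and number. Over the alternatives the G2 and M phase median stayed between 0.89 and 1.12, that of S phase between 0.53 and 0.65, that of histones between 0.36 and 0.68 and that of matrix glycoproteins between -0.32 and -0.25. Of 1363 recomputed list medians, 1308 moved by less than the spread over treatments (1 SD), as did all 623 recomputed values of the leading genes. For the genes much of this was fixed in advance. The level and cluster filters left a gene's own value unchanged. Leaving out 1 treatment or 1 replicate 2 array cannot move a mean over the treatments by 1 SD. The count of 623 is therefore no measure of how stable the genes were. The lists already held 1 cluster per gene, so that filter left their medians unchanged. Leaving out 1 treatment or 1 replicate 2 array also holds back a median of such means. The count of 1308 is therefore no measure of how stable the lists were either. A fold over 2 left 74 higher and 3 lower clusters. Against replicate 3 alone 111 were lower, and without the arrays of 3α-THP 37. Leaving out 1 array in turn gave 235 to 381 higher clusters, 37 to 87 lower clusters, 4 to 109 past the adjusted p between replicates 1 and 3, 23 to 54 past fold and p, and 0 to 1 in the interaction. The count of 82 between replicates 1 and 3 became 214 among clusters with a mean log2 of at least 6, 262 with a variance prior that has a trend, and 243 with array weights. The interaction count of 0 became 6 with that level minimum and 3 with that prior. Of 317 recomputed values for genes named between replicates 1 and 3, 70 lost the adjusted p and none turned its direction. The cause of these shifts was not tested. For the replicate block, the fit without the term for replicate 1 against 3 also gave 0 interaction calls.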

Other observations

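Clock genes, a list chosen after their values were seen, did not move as one group. None of 18 was called in replicate 2 and the median difference was -0.08. CRY1, a repressor of the clock, read 5.66 (V), 5.67 (3α-THP), 5.41 (P4) and 5.49 (F) in replicate 2 and 4.70 to 5.25 (median 5.03) elsewhere, a difference of 0.56. PER2, a second repressor, read 7.06, 7.01, 7.31 and 7.03 against 7.40 to 7.60 (median 7.48), a difference of -0.39. Both kept their groups apart, in opposite directions and below 1.5-fold. BMAL1, the activator of the clock, differed by 0.01. Between replicates 1 and 3, NR1D1 was the one clock gene past the adjusted p in limma, and 2 were higher at an unadjusted p under 0.05. Over all 18417 genes, 1306 were higher at that unadjusted p.

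Genes of nucleotide synthesis, also listed after their values were seen, had a median difference of 0.24 in replicate 2. In this list 7 of 27 were higher (25.9%, against 1.51% of all genes) and none lower. CTPS1, which makes CTP, read 7.54 (V), 7.99 (3α-THP), 7.38 (P4) and 7.50 (F) against 6.22 to 6.79 (median 6.41), a difference of 1.17, while its paralogue CTPS2 differed by -0.07. MTHFD1, which supplies folate one-carbon units, differed by 0.82 and PNP, a purine salvage enzyme, by 0.83. PNP was also higher in replicate 3 than in 1, by 0.44 (limma, adjusted p = 0.0232). RRM1, RRM2, TYMS and TK1 of this list are also in that of S phase.

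The genes that passed the adjusted p between replicates 1 and 3 were 80, and 41 of the 59 gene lists held none of them. The higher ones included CD274 (PD-L1, 0.55), GDF15 (0.47), DDIT3 (0.54), the phosphatase DUSP1 (0.38), MIR17HG, the host gene of a microRNA cluster (0.56), and the metalloproteinases ADAMTS1 (0.55), ADAMTS12 (0.45) and ADAMTS6 (0.41), all named after their values were seen.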
